A study of Botryllus schlosseri with 12 samples.

Results

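The 166 most abundant contigs in the tunic and vasculature of *Botryllus schlosseri* were chosen by their level alone. A level was expressed as CPM, the count of a contig relative to the total of its library, and contigs with a mean of 500 CPM or more over the 12 libraries were taken, apart from 1 contig that is not treated here. These 166 of 32561 contigs made up 0.510% of the contigs in the table. The mean CPM that chose them is given as a description only, and it used all 12 libraries alike, without regard to the time point.

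*Botryllus schlosseri* is a tunicate that lives in colonies, in which the individuals (zooids) share one gelatinous covering, the tunic, and one blood system. The libraries came from subclones of a single isogenic strain. All zooids and buds were cut away from every colony, and the vasculature and tunic that remained were frozen at once (0 h post-injury, hpi) or kept in filtered seawater for 6, 18 or 24 h, with 3 libraries at each of the 4 time points and a separate subclone for each library. No uninjured colony was among them, so the reference for each change is tissue taken immediately after the operation. The use of a single strain means that differences between genotypes were not sampled.

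After the loss of all zooids and buds a colony of this species can regrow complete zooids, a process called whole-body regeneration. In bulk RNA a short list of very abundant transcripts usually takes a large part of the reads, and transcripts of common housekeeping proteins, of structural proteins and of the prevailing cell types are typical of such lists. Because the shares of all contigs in a library add up to the whole, a gain of a very abundant transcript lowers the share left to the others. In bulk samples fewer cells of a type and less RNA per cell cannot be told apart. The rows of the table hold identifiers of a de novo assembly without gene names, so no function or cell type is given for any contig, no sequence is shown, and the labelled tissue could not be checked against marker genes. Identifiers are those of Trinity, which groups contigs into genes and genes into components of related sequence.

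The library totals ranged from 2076597 to 3992991 estimated counts. A member had between 124 and 202752 estimated counts in a library, so all 166 passed the filter on low counts that left 31383 contigs to test and removed 1178. The members had smaller errors, with a median standard error of the log2 fold change at 18 against 0 hpi of 0.226 for the members and 0.302 for all tested contigs. Whether this came from their greater depth was not tested. The median coefficient of variation between replicates was 13.0% for the members and 22.0% for all tested contigs at 0 hpi, 17.5% and 21.7% at 6 hpi, 13.8% and 18.3% at 18 hpi, and 22.6% and 25.5% at 24 hpi. Members therefore had a better chance of a call than the average contig, which bears on every comparison with the background.

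1 library stood apart from the other libraries of its time point. In 24 hpi replicate 1, 54 members lay at least 2-fold below their 0 hpi mean, against 21 and 19 in 24 hpi replicates 2 and 3, while the libraries of 18 hpi had 60, 44 and 65 such members. Its TMM scaling factor, which multiplies the library total before levels are compared, was 1.09. This lay within the 1.06 to 1.10 of the 18 hpi libraries, whereas the other 24 hpi libraries had 0.943 and 0.965. Results at 24 hpi that change without this library are given both ways.

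The members differed widely in level. Their median was 891 CPM, and 100 were under 1000 CPM while 66 reached 1000 CPM. The 3 members nearest to the minimum had mean values of 509.5, 506 and 504 CPM, and the 3 contigs nearest below it had 496, 491 and 490.5 CPM. Of the members, 105 had a mean of 500 CPM or more at every time point and 80 reached it in every library. Another 30 reached it at 3 time points, 23 at 2 and 8 at only 1. These 30, 23 and 8 members entered through the time points at which they were high. A difference between time points was thus built into their choice, most strongly for the last set.

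The same minimum applied to a single time point took partly other contigs. It was reached by 182 contigs at 0 hpi, of which 135 were members (74.2% of these contigs and 81.3% of the members). At 6 hpi it was reached by 186 contigs, 149 of them members (80.1% and 89.8%). At 18 hpi, 147 contigs reached it and 133 were members (90.5% and 80.1%). At 24 hpi, 175 contigs reached it and 147 were members (84.0% and 88.6%). Over the time points, 273 contigs reached the minimum at 1 or more and 105 at all of them, so the list of highly abundant contigs was shortest at 18 hpi.

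The joint share of the members in the counts lay between 20.6% and 25.0% in the 12 libraries, and 2 of the 3 libraries of 24 hpi were the highest. At 0 hpi they held 22.2%, 23.4% and 21.8% of the counts of replicates 1, 2 and 3. At 6 hpi their share was 21.7%, 22.8% and 23.3%. At 18 hpi it was 22.6%, 22.7% and 20.6%, and at 24 hpi 20.9%, 25.0% and 24.9%. The libraries of all 4 time points overlapped, and the lowest and highest values at 24 hpi lay further apart than any of the means.

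The mean joint share was 22.5% ± 0.852 at 0 hpi and 22.6% ± 0.831 at 6 hpi, followed by 21.9% ± 1.16 at 18 hpi and 23.6% ± 2.31 at 24 hpi (SD, n = 3 each). An exact permutation test over all 369600 assignments of the 12 libraries to 4 groups of 3 gave p = 0.567. Without 24 hpi replicate 1 the mean at 24 hpi was 24.9% and the exact permutation p 0.0376, so this result rests on that library. Between single pairs of time points the differences of the means ranged from -0.63 to 1.66 percentage points, with exact two-sided p from 0.3 to 1.0, where 3 against 3 libraries allow no p below 0.1.

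Within this share the balance between the members shifted. The 10 most abundant members together held 5.26% ± 0.607 of the counts at 0 hpi and 5.04% ± 0.289 at 6 hpi, but 9.36% ± 0.637 at 18 hpi and 8.65% ± 0.955 at 24 hpi (SD, n = 3 each; exact permutation p = 0.00279, adjusted over the 5 share and concentration measures 0.00698). The other 156 members held 17.2% ± 0.252, 17.5% ± 0.990, 12.6% ± 0.768 and 15.0% ± 1.35, respectively (exact permutation p = 0.000844, adjusted 0.00422). For both groups of members every library of 18 and 24 hpi lay beyond every library of 0 and 6 hpi, in opposite directions, and each of these pairs had the smallest two-sided exact p of 0.1.

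A single contig carried most of the gain of the 10. TRINITY_DN17129_c7_g1_i6.p1 held 1.42%, 1.92% and 1.21% of the counts at 0 hpi, 2.01%, 2.53% and 2.01% at 6 hpi, 6.25%, 5.35% and 5.32% at 18 hpi and 3.68%, 4.27% and 4.15% at 24 hpi. The members ranked 2 to 10, a group formed after the values were seen, had means of 3.75%, 2.86%, 3.72% and 4.62% in the same order. The other 165 members, also grouped afterwards, had means of 20.9% at 0 hpi, 20.4%, 16.3% and 19.6%. With the contig removed from both the members and the library totals, the joint share was 21.3%, 20.8%, 17.3% and 20.4%, with an exact permutation p of 0.0406. At 18 hpi the joint share was thus the sum of a larger share of 1 contig and a smaller share of the other members.

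**Figure D1:**
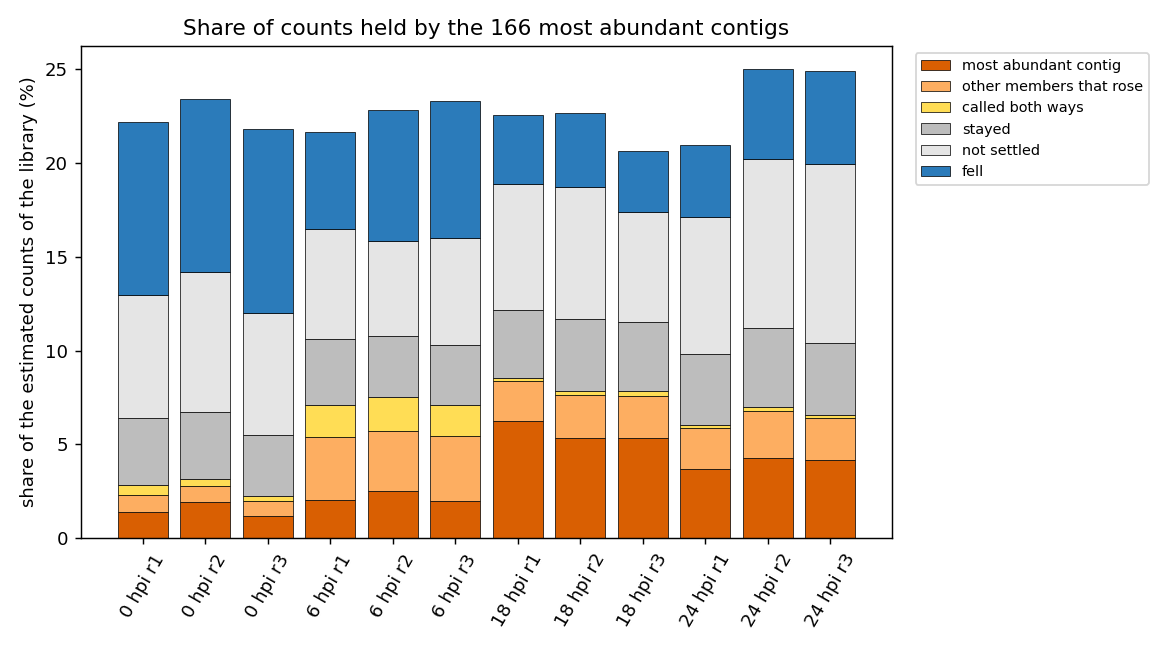
Stacked bars give the share of the estimated counts (%) held by the 166 members in each of the 12 libraries (r1 to r3 are replicates), split into the most abundant contig and the classes of the other members by their calls against 0 hpi. The bars end between 20.6% and 25.0%, while the most abundant contig widens from 1.21 to 1.92% at 0 hpi to 5.32 to 6.25% at 18 hpi and the members that fell narrow from a mean of 9.42% to 3.62%.

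The spread of the counts over all contigs was described by the number of contigs that together held 50% of a library. It was 1780, 1709 and 1925 at 0 hpi, 2010, 1846 and 1775 at 6 hpi, 2089, 2126 and 2372 at 18 hpi and 2228, 1546 and 1640 at 24 hpi. The 18 hpi libraries had more than every library of 0 and 6 hpi, while the 24 hpi libraries covered nearly the whole range (exact permutation p = 0.170, adjusted 0.283). When each library's own 166 most abundant contigs were taken in place of the members, the mean share was 23.9%, 23.2%, 22.5% and 24.5% (p = 0.371 by the same exact test, adjusted 0.464). Without 24 hpi replicate 1 the exact permutation p was 0.00292 for the number of contigs and 0.0154 for the own-order share.

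The individual contigs were compared between time points with edgeR's quasi-likelihood test on all tested contigs, with Benjamini-Hochberg adjustment, and a contig was called where its adjusted p was under 0.05 and its level differed more than 2-fold, a log2 fold change beyond 1. At 6 against 0 hpi 23 members were called higher and 6 lower, where 4.63% of all tested contigs were called higher and 5.03% lower. These are 13.9% and 3.61% of the members. At 18 against 0 hpi the balance was the reverse, with 13 members higher (7.83%) and 60 lower (36.1%) against a background of 2.93% and 7.08%. At 24 against 0 hpi 17 were higher (10.2%) and 19 lower (11.4%), where the background was 3.54% and 6.54%. Without 24 hpi replicate 1, 31 members were called higher at 24 hpi, and the background share of that fit was not computed. The levels at each time point entered the mean that chose the members. Their calls, here and in the comparisons that follow, are therefore not independent of that choice, and their difference from the background is a description only.

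Later time points were also compared with each other. At 18 against 6 hpi 3 members were called higher and 34 lower, with a background of 1.6% and 4.76%. With library size as the only scaling this split was 6 and 24, so that lower calls made up 80.0% in place of 91.9%. At 24 against 6 hpi 5 were called higher and 31 lower, with a background of 2.01% and 4.13%. The higher count was 11 without 24 hpi replicate 1 and 1 without 6 hpi replicate 2. At 24 against 18 hpi edgeR called 0 members in either direction (background 0.0223% higher and 0.00319% lower). Its unadjusted p was under 0.05 for 69 members, and the share of all tested contigs with such a p was not computed. DESeq2 called 1 member higher at 24 against 18 hpi and limma-voom 0, and edgeR called 5 higher without 24 hpi replicate 1.

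Without the limit on the fold change, an adjusted p under 0.05 alone gave 24 members higher and 15 lower at 6 against 0 hpi, where 6.9% of all tested contigs were higher and 6.64% lower. It gave 21 and 69 at 18 against 0 hpi (background 5.28% and 8.84%) and 35 and 43 at 24 against 0 hpi (6.12% and 8%). At 18 against 6 hpi it gave 5 and 70 (2.63% and 6.36%), at 24 against 6 hpi 17 and 32 (3% and 5.26%) and at 24 against 18 hpi 0 in either direction, as with the limit. Small falls were thus common among the members, and the limit on the fold change removed many of them at 18 against 6 hpi. At 24 against 0 hpi it took the rises from 35 to 17 and the falls from 43 to 19. At 24 against 6 hpi the rises went from 17 to 5 and the falls from 32 to 31.

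The median member lay below the median contig in 5 of the 6 comparisons. Against 0 hpi the members had a median log2 fold change of -0.24 (6 hpi), -0.43 (18 hpi) and -0.18 (24 hpi). It was -0.49 at 18 against 6 hpi, -0.18 at 24 against 6 hpi and 0.41 at 24 against 18 hpi, while that of all tested contigs lay between -0.01 and 0.01 in each. The level depends on the scaling. With library size alone the median of all tested contigs moved to 0.17 at 18 against 0 hpi and to 0.14 at 18 against 6 hpi, and that of the members to -0.27 and -0.34, which leaves the members below the other contigs by a like amount. The first 3 comparisons share the 0 hpi libraries and are not independent of each other.

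By their mean normalized CPM (scaled by TMM), 79 members were highest at 0 hpi and 57 at 24 hpi, while 24 peaked at 6 hpi and 6 at 18 hpi. The lowest mean of 73 members was that of 18 hpi, of 42 members that of 0 hpi, of 31 that of 6 hpi and of 20 that of 24 hpi. The 6 that peaked at 18 hpi include the most abundant contig of all and the other members of its component. On CPM without TMM scaling, 17 members peaked at 18 hpi, so this count depends on the scaling. Peaks and lowest points were not counted over all tested contigs, so these counts have no background and describe the members only.

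Against 0 hpi the members were sorted into those that rose (called higher at 1 or more later time points and lower at none), fell (the converse), were called both ways, stayed (no call, and a 95% interval of the log2 fold change within -1 to 1 at all 3 later time points) or were not settled. There were 23 that rose, 57 that fell, 5 called both ways, 35 that stayed and 46 that were not settled. The other tested contigs were not sorted in this way. Neither these counts nor the sets of calls within the classes therefore have a background share, and they describe the members only. As a sum, the members that rose held 2.35% of the counts at 0 hpi and 5.51% at 6 hpi, then 7.86% at 18 hpi and 6.35% at 24 hpi. Those that fell held 9.42%, 6.47%, 3.62% and 4.52%. Members called both ways held 0.388%, 1.73%, 0.202% and 0.166%, those that stayed 3.47%, 3.31%, 3.73% and 3.96%, and those not settled 6.84%, 5.55%, 6.54% and 8.61%. The classes were formed from these values, so their sums are a description.

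**Figure D2:**
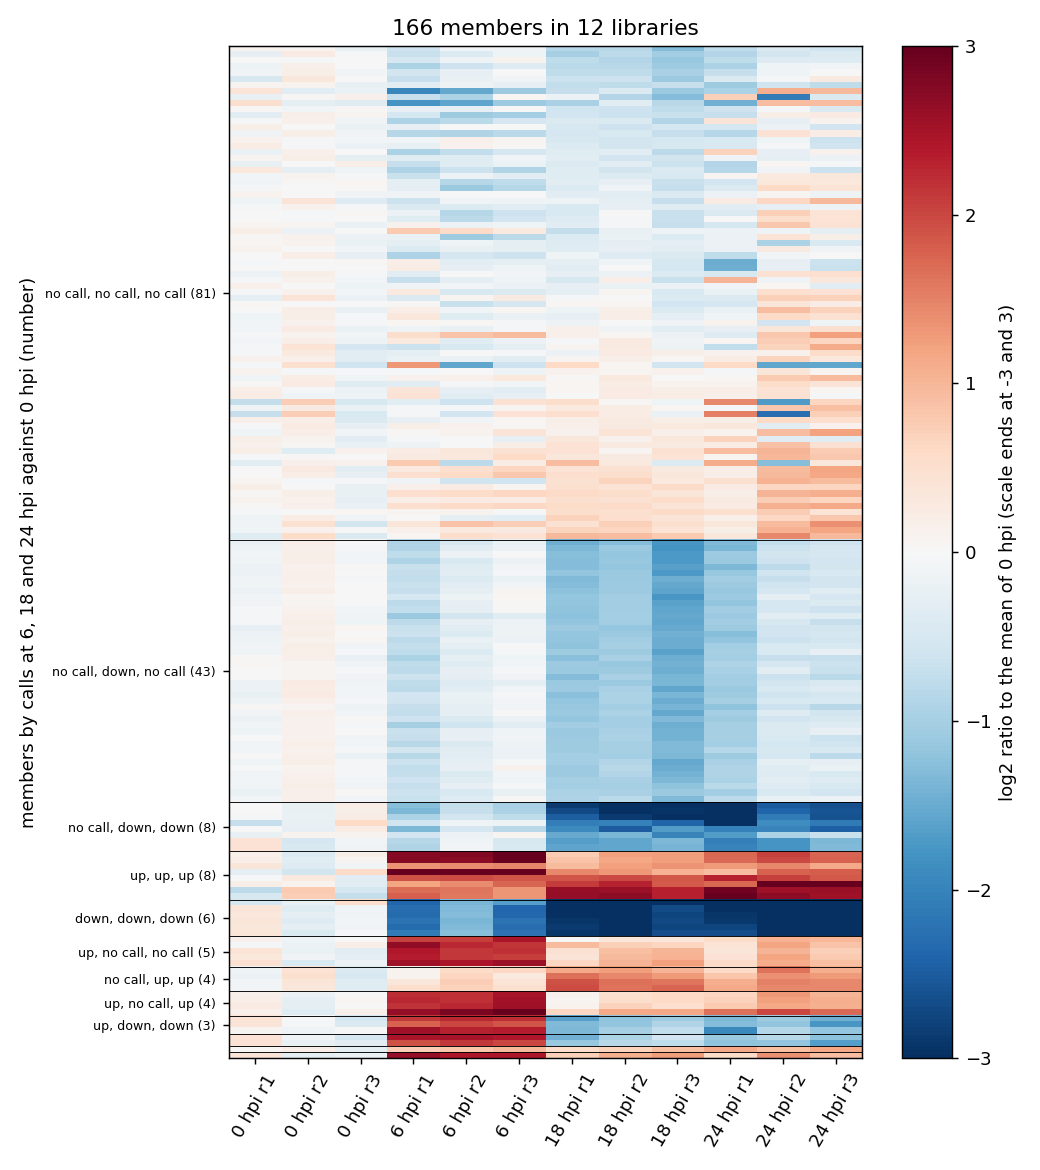
Each row is 1 of the 166 members and each column 1 of the 12 libraries (r1 to r3 are replicates), with the colour giving the log2 ratio of the normalized CPM to the mean of the 3 libraries of 0 hpi; the colour scale ends at -3 and 3, and stronger changes have the end colour. Rows are grouped by their calls at 6, 18 and 24 hpi against 0 hpi, with the number of members in brackets for groups of 3 or more, and the block of 43 members lower at 18 hpi has one shade in each column.

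TRINITY_DN17129_c7_g1_i6.p1 ranked first in all 12 libraries, with a mean of 33441 CPM, against 8414 CPM for the member ranked next. Its normalized CPM, scaled by TMM, was 14937, 20440 and 12286 at 0 hpi, 20183, 26424 and 21165 at 6 hpi, 59386, 50263 and 48233 at 18 hpi and 33863, 45315 and 43134 at 24 hpi. All libraries of 18 and 24 hpi were above all of 0 and 6 hpi, and the 18 hpi libraries were above those of 24 hpi. The log2 fold change against 0 hpi was 0.51 ± 0.235 (SE; adjusted p = 0.182) at 6 hpi, 1.73 ± 0.241 (adjusted p = 8.37e-05) at 18 hpi and 1.36 ± 0.238 (adjusted p = 0.000704) at 24 hpi. The difference between 24 and 18 hpi was -0.37 ± 0.234 (adjusted p = 0.836).

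Its component holds 3 contigs, all of them members, and all 3 rose. TRINITY_DN17129_c7_g2_i1.p1, the seventh member by level, had normalized CPM of 1705, 2699 and 1370 at 0 hpi, 2059, 2994 and 2349 at 6 hpi, 6042, 5199 and 4695 at 18 hpi and 3434, 4946 and 4637 at 24 hpi. The order of the replicates was the same as for the first contig at each time point. Its log2 fold change was 0.36 ± 0.252 (SE) at 6 hpi, 1.46 ± 0.257 (adjusted p = 0.000718) at 18 hpi and 1.17 ± 0.255 (adjusted p = 0.00423) at 24 hpi. The 3 contigs of the component together took 1.73%, 2.47%, 6.32% and 4.53% of the counts at the 4 time points. Reads were divided between related sequences for 2 of the 3, whereas the estimates of the first contig were whole numbers in every library.

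The second component among the leading members, TRINITY_DN17450_c3, has 11 contigs in the table, of which 7 are members and 4 are among the first 10. None of the 7 was called against 0 hpi. TRINITY_DN17450_c3_g1_i7.p1, the second member, had normalized CPM of 9759, 10377 and 8424 at 0 hpi, 8336, 4512 and 5561 at 6 hpi, 7158, 8339 and 7180 at 18 hpi and 8458, 12571 and 10776 at 24 hpi. Its 6 hpi libraries were all below those of 0 hpi, with a log2 fold change of -0.63 ± 0.238 (SE; adjusted p = 0.0929), and the value at 24 hpi was 0.16 ± 0.238 (adjusted p = 0.745).

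TRINITY_DN17450_c3_g4_i3.p1, the fifth member, had 4130, 4257 and 4330 normalized CPM at 0 hpi, 3498, 1962 and 2344 at 6 hpi, 3166, 3945 and 2616 at 18 hpi and 3133, 6416 and 5615 at 24 hpi. Its replicates were close at 0 hpi and far apart later, and the 24 hpi libraries lay on both sides of the 0 hpi level. TRINITY_DN17450_c3_g1_i9.p1, the eighth, had 2976, 4206 and 3925 at 0 hpi, 2568, 1761 and 1828 at 6 hpi, 2498, 2364 and 2344 at 18 hpi and 2306, 4200 and 4423 at 24 hpi. Its 6 hpi libraries were below those of 0 hpi with a log2 fold change of -0.85 ± 0.248 (SE; adjusted p = 0.0296), within the 2-fold limit of a call. Without 6 hpi replicate 1 the value was -1.04 and passed.

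TRINITY_DN17450_c3_g1_i4.p1, the sixth member, shares its Trinity gene with the second and the eighth. Its normalized CPM was 3084, 2845 and 2861 at 0 hpi, 2705, 1931 and 1951 at 6 hpi, 4039, 4692 and 3576 at 18 hpi and 4070, 6027 and 5651 at 24 hpi. Here the 24 hpi libraries were all above those of 0 and 6 hpi, with log2 fold changes of 0.84 ± 0.213 (SE; adjusted p = 0.0126) against 0 hpi and 1.26 ± 0.215 (adjusted p = 0.0012) against 6 hpi, the latter called higher. The estimates of all 7 members of the component are not whole numbers, so reads were divided, among these or with other contigs. The level of each is therefore less certain, and the sum of the 7 is given as well. That sum was 2.31%, 2.46% and 2.37% of the counts at 0 hpi, 2.10%, 1.22% and 1.38% at 6 hpi, 2.16%, 2.50% and 2.05% at 18 hpi and 2.29%, 3.33% and 3.09% at 24 hpi. It was lowest at 6 hpi, without overlap with 0 hpi.

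The other members among the first 10 had whole estimates in every library. TRINITY_DN15738_c1_g2_i12.p1, the third, had normalized CPM of 5524, 7952 and 4623 at 0 hpi, 3878, 5589 and 5424 at 6 hpi, 5418, 4915 and 3706 at 18 hpi and 7109, 9215 and 11893 at 24 hpi. Replicates differed strongly at 0 hpi, and no comparison with 0 hpi was called. The highest log2 fold change against 0 hpi was 0.64 ± 0.258 (SE; adjusted p = 0.118) at 24 hpi.

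TRINITY_DN17527_c0_g6_i1.p1, the fourth member, had the smallest maximum of its 3 absolute log2 fold changes against 0 hpi among the members that stayed, followed by TRINITY_DN18662_c2_g2_i3.p1. Its normalized CPM was 4342, 3849 and 3887 at 0 hpi, 3919, 3976 and 3612 at 6 hpi, 4414, 4253 and 4370 at 18 hpi and 3932, 5158 and 4238 at 24 hpi. The libraries of 0 hpi overlapped those of each later time point. The log2 fold changes were -0.07, 0.11 and 0.14 with standard errors of 0.182, and the widest 95% interval reached from -0.45 to 0.53.

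TRINITY_DN18662_c2_g2_i3.p1 had 760, 879 and 781 normalized CPM at 0 hpi, 835, 833 and 793 at 6 hpi, 731, 800 and 753 at 18 hpi and 864, 543 and 738 at 24 hpi. Its log2 fold changes were 0.02, -0.08 and -0.17 with standard errors of 0.187. The intervals of both contigs lay within less than 2-fold of the 0 hpi level, while the spread of their 24 hpi libraries was wider than at the other time points.

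TRINITY_DN14476_c7_g3_i4.p1, the ninth member, had 2118, 3753 and 2969 normalized CPM at 0 hpi, 1811, 2532 and 2780 at 6 hpi, 1876, 1909 and 1375 at 18 hpi and 2174, 2838 and 3573 at 24 hpi. The 18 hpi libraries were all below those of 0 hpi, with a log2 fold change of -0.78 ± 0.255 (SE; adjusted p = 0.0516). TRINITY_DN18245_c0_g8_i2.p1, the tenth, was the only one of the 10 that fell. It had 5198, 2776 and 3548 at 0 hpi, 2054, 3652 and 2780 at 6 hpi, 1293, 1304 and 1453 at 18 hpi and 964, 1126 and 1526 at 24 hpi. All 18 and 24 hpi libraries were below those of 0 and 6 hpi, with log2 fold changes against 0 hpi of -1.51 ± 0.265 (SE; adjusted p = 0.000739) and -1.67 ± 0.266 (adjusted p = 0.000295).

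**Figure D3:**
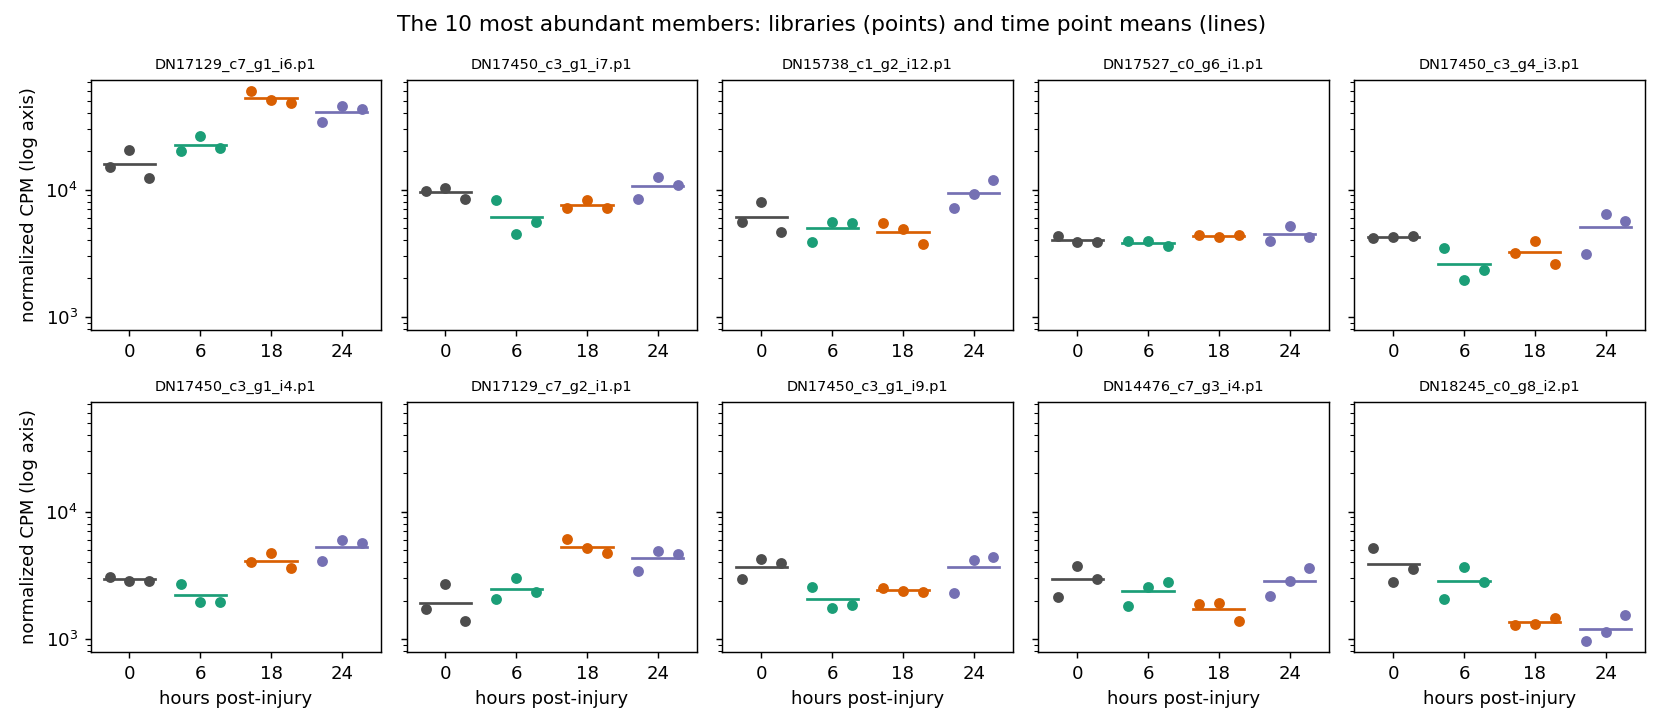
Normalized CPM (log axis) of the 10 most abundant members, in order of their mean, against the time after injury; points are the 3 libraries of a time point and lines their mean. Both contigs of component DN17129_c7 step up at 18 hpi, the first from a mean of 15888 at 0 hpi to 52627, DN18245_c0_g8_i2.p1 steps down from 3841 to 1350, and DN17527_c0_g6_i1.p1 lies between 3612 and 5158 in all libraries.

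Among the members that rose, 8 were called higher at all 3 later time points, 5 at 6 hpi alone, 4 at 6 and 24 hpi, 4 at 18 and 24 hpi, 1 at 6 and 18 hpi and 1 at 24 hpi alone. Of the 23, 18 were thus called at 6 hpi. The 4 members called at 18 and 24 hpi, which include the first and the seventh contig, were the largest of these sets by their share of the counts at every time point, with 1.78% at 0 hpi and 2.53% at 6 hpi, then 6.44% at 18 hpi and 4.65% at 24 hpi. The 8 called at all 3 time points held 0.215%, 1.13%, 0.729% and 0.902%. Their median log2 ratio to the 0 hpi mean was 1.85, 1.78 and 1.81 in the 6 hpi libraries, 1.67, 1.64 and 1.59 at 18 hpi and 1.73, 2.05 and 1.83 at 24 hpi.

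TRINITY_DN17540_c7_g2_i3.p1, 1 of the 2 members that rose most by their mean log2 fold change, had normalized CPM of 102.3, 84.6 and 182.5 at 0 hpi, 2932, 2080 and 1947 at 6 hpi, 335.5, 304.7 and 253.8 at 18 hpi and 234.7, 418.9 and 432.0 at 24 hpi. It was highest at 6 hpi in every replicate and stayed above every 0 hpi library later. The log2 fold change was 4.23 ± 0.329 (SE; adjusted p = 5.62e-07) at 6 hpi, the largest rise of any member, 1.27 ± 0.296 (adjusted p = 0.00751) at 18 hpi and 1.55 ± 0.298 (adjusted p = 0.00178) at 24 hpi. This contig is a member because of its level at 6 hpi, since the means at the other time points were below the minimum.

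TRINITY_DN16449_c5_g4_i2.p1, the other, had 95.5, 225.4 and 81.3 normalized CPM at 0 hpi, 466.1, 401.3 and 334.9 at 6 hpi, 827.7, 861.5 and 674.0 at 18 hpi and 1141, 855.6 and 778.1 at 24 hpi. Its means followed the time course upwards, with log2 fold changes of 1.58 ± 0.319 (SE; adjusted p = 0.00363), 2.55 ± 0.328 (adjusted p = 7.32e-05) and 2.78 ± 0.331 (adjusted p = 3.52e-05). It is a member because of its level at 18 and 24 hpi, since its means at 0 and 6 hpi were below the minimum. Another member of its component rose alike, and the 2 had values of 1.54 to 1.58, 2.51 to 2.55 and 2.68 to 2.78. Both carry divided reads.

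Several components rose mainly at 6 hpi, and these were singled out after their values were seen. The 3 members of TRINITY_DN14826_c5 had log2 fold changes of 2.84 to 2.87 at 6 hpi, 1.00 to 1.10 at 18 hpi and 1.79 to 1.85 at 24 hpi. Their summed share was 0.143%, 0.0970% and 0.146% at 0 hpi, 0.864%, 0.884% and 1.06% at 6 hpi, 0.232%, 0.321% and 0.341% at 18 hpi and 0.468%, 0.510% and 0.428% at 24 hpi. In the 4 members of TRINITY_DN14620_c1 the values were 2.19 to 2.52 at 6 hpi, 0.82 to 1.03 at 18 hpi and 0.72 to 0.98 at 24 hpi. The 3 of TRINITY_DN18514_c8 had 2.20 to 2.33, 0.23 to 0.43 and 0.88 to 1.01, respectively. Of these 3, 1 had means of 214, 1062, 320 and 442 CPM at 0, 6, 18 and 24 hpi, so it is a member only through 6 hpi. A high level at 6 hpi raised the mean that chose all these members, so their rise there is a description only. Reads were divided for all members of TRINITY_DN14826_c5 and TRINITY_DN14620_c1 and for 2 of the 3 of TRINITY_DN18514_c8. Members of a component are related sequences and cannot be taken as independent of each other.

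The 5 members called both ways were all higher at 6 hpi and lower later, 3 of them at 18 and 24 hpi and 2 at 24 hpi alone. The most abundant of these, TRINITY_DN12658_c3_g1_i6.p1, was chosen after its values were seen and ranked eleventh among the members. Its normalized CPM was 1911, 1422 and 999.0 at 0 hpi, 6274, 6931 and 6727 at 6 hpi, 467.1, 627.2 and 685.3 at 18 hpi and 569.9, 686.3 and 530.4 at 24 hpi. The 6 hpi libraries were all above and the later ones all below those of 0 hpi, with log2 fold changes of 2.20 ± 0.242 (SE; adjusted p = 1.03e-05), -1.28 ± 0.236 (adjusted p = 0.00112) and -1.28 ± 0.236 (adjusted p = 0.00113). The drop from 6 to 18 hpi was -3.49 ± 0.256 (SE; adjusted p = 2.95e-07). Of the 5 members, 4 come from only 2 components, with 2 each.

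**Figure D4:**
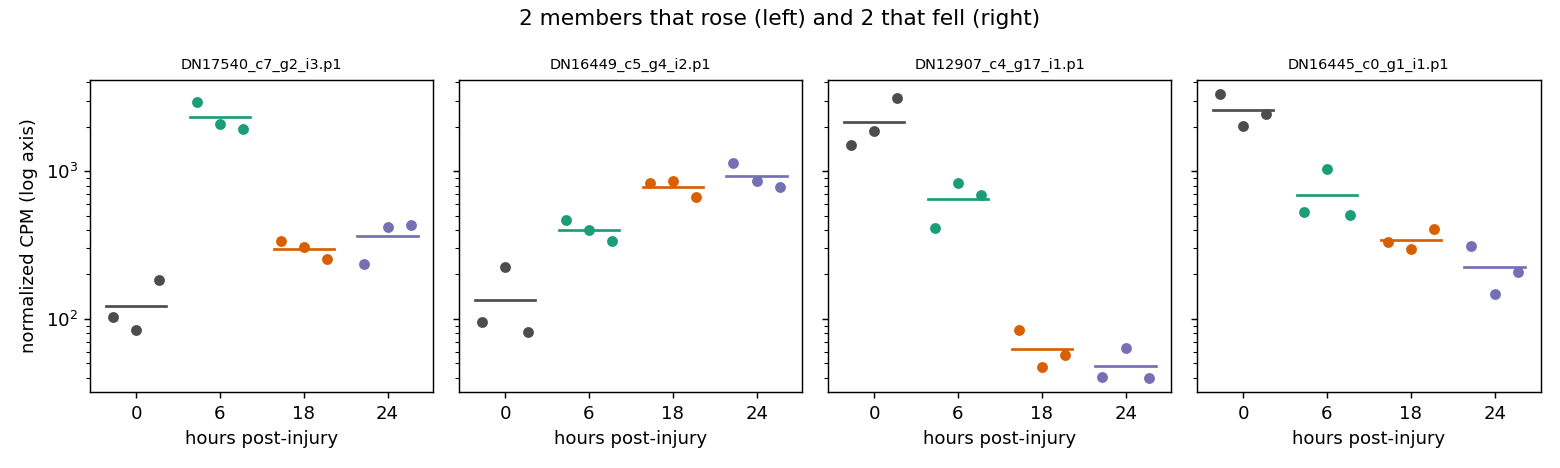
Normalized CPM (log axis) of the 2 members that rose and the 2 that fell most by the mean of their 3 log2 fold changes, against the time after injury; points are the 3 libraries of a time point and lines their mean. DN17540_c7_g2_i3.p1 peaks at 6 hpi at 1947 to 2932, DN16449_c5_g4_i2.p1 climbs to a mean of 924.8 at 24 hpi, and DN12907_c4_g17_i1.p1 ends at 39.7 to 63.4.

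Among the 57 members that fell, 6 were called lower at all 3 later time points, 8 at 18 and 24 hpi, and 43 at 18 hpi alone. TRINITY_DN12907_c4_g17_i1.p1 showed the deepest fall, with normalized CPM of 1510, 1870 and 3136 at 0 hpi, 415.8, 831.2 and 694.0 at 6 hpi, 83.5, 47.1 and 56.8 at 18 hpi and 40.4, 63.4 and 39.7 at 24 hpi. Each of 6 and 18 hpi lay wholly below the time point before, and 18 and 24 hpi overlapped. The log2 fold changes were -1.75 ± 0.324 (SE; adjusted p = 0.00204), -5.12 ± 0.378 (adjusted p = 3.81e-07) and -5.52 ± 0.387 (adjusted p = 2.39e-07). This contig is a member because of its level at 0 and 6 hpi, since its means at 18 and 24 hpi were below the minimum of 500 CPM.

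TRINITY_DN16445_c0_g1_i1.p1 had 3341, 2018 and 2462 normalized CPM at 0 hpi, 533.1, 1038 and 503.7 at 6 hpi, 330.5, 299.2 and 404.6 at 18 hpi and 312.0, 147.3 and 209.3 at 24 hpi. Most of its fall had occurred by 6 hpi, with log2 fold changes of -1.91 ± 0.320 (SE; adjusted p = 0.000837) there, -2.92 ± 0.333 (adjusted p = 2.13e-05) at 18 hpi and -3.54 ± 0.343 (adjusted p = 4.05e-06) at 24 hpi. It too is a member through 0 and 6 hpi, with means below the minimum at 18 and 24 hpi. The 6 members called lower at all 3 time points held 1.34% of the counts at 0 hpi and 0.372% at 6 hpi, then 0.177% at 18 hpi and 0.118% at 24 hpi. They include the 3 members of TRINITY_DN13302_c0, singled out after their values were seen, whose log2 fold changes were -1.90 to -1.88, -2.92 to -2.87 and -3.42 to -3.32.

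The 8 members called lower at 18 and 24 hpi fell from 2.14% of the counts at 0 hpi to 1.43%, 0.567% and 0.524%. Their median log2 ratio to the 0 hpi mean was -0.92, -0.34 and -0.62 in the 6 hpi libraries, -1.98, -2.26 and -2.20 at 18 hpi and -2.67, -1.91 and -2.29 at 24 hpi. The 3 members of TRINITY_DN15549_c2 among the members that fell, also chosen after their values were seen, had log2 fold changes of -0.97 to -0.74 at 6 hpi, -3.02 to -2.79 at 18 hpi and -2.78 to -2.62 at 24 hpi.

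The 43 members called lower at 18 hpi alone changed by a small and nearly equal amount. Relative to 0 hpi, the median of their log2 fold changes was -0.35 at 6 hpi (range -0.64 to -0.18), -1.21 at 18 hpi (range -1.49 to -1.01) and -0.68 at 24 hpi (range -0.87 to -0.37), and the SD over the 43 was 0.0874, 0.0984 and 0.113. The range at 18 hpi begins at the limit of a call because the limit chose them. Levels within the set ran from 540 to 1766 CPM. Together they held 5.47%, 6.47% and 5.89% of the counts at 0 hpi, 3.74%, 4.74% and 5.53% at 6 hpi, 2.95%, 3.24% and 2.45% at 18 hpi and 3.23%, 4.13% and 4.25% at 24 hpi.

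The 43 also followed each other from library to library. Their median log2 ratio to the 0 hpi mean was -0.10, 0.15 and -0.07 in the 0 hpi libraries, -0.72, -0.33 and -0.09 at 6 hpi, -1.15, -1.02 and -1.48 at 18 hpi and -1.04, -0.51 and -0.51 at 24 hpi. Replicates of 6 hpi thus differed by more than the 0 and 6 hpi medians did, and 24 hpi replicate 1 lay at the level of the 18 hpi libraries. Over the 12 libraries the median Pearson r between 2 of the 43 was 0.977 (903 pairs, lowest 0.886), against 0.157 over the 13695 pairs of all members. As all pairs share the same libraries and their scaling, and the set was formed by a common fall, this correlation is a description only.

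What sets the 43 apart beyond the calls is that 41 had whole estimates in every library and 41 were the only contig of their Trinity gene. Of all members, 88 had whole estimates in every library and 93 were the only contig of their Trinity gene, and of the 23 members that rose 4 and 7. At 18 against 0 hpi, 44 members were called lower when library size alone was scaled for, against 60 with TMM, and 11 when the test asked for a fold change beyond 2 (glmTreat), so the number of members called lower depends on both choices. Background shares with library size alone and with glmTreat were not computed.

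**Figure D5:**
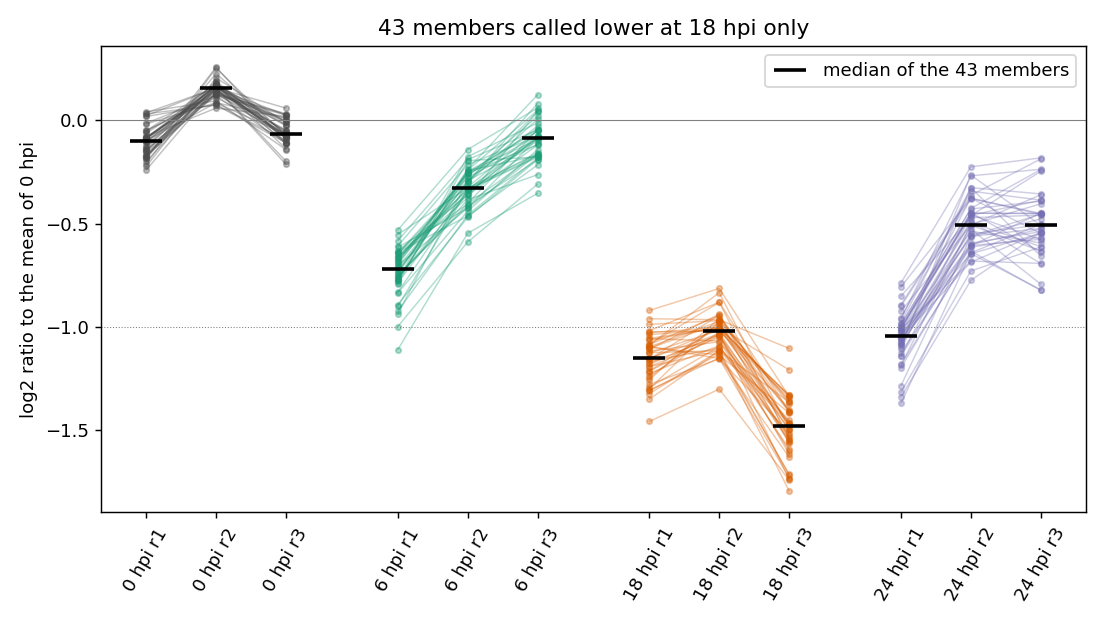
Each thin line joins the 3 libraries of a time point for 1 of the 43 members called lower at 18 hpi alone, as the log2 ratio of the normalized CPM to the mean of 0 hpi, and black bars are medians over the 43; replicates have no order. Medians run from -0.72 to -0.09 at 6 hpi, from -1.48 to -1.02 at 18 hpi and from -1.04 to -0.51 at 24 hpi, and the lines of a time point run nearly parallel.

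The 35 members that stayed had 95% intervals within 2-fold of 0 hpi at each later time point and held 3.31 to 3.96% of the counts as time point means. They include all 5 members of TRINITY_DN18310_c5, chosen after their values were seen, with log2 fold changes of -0.24 to 0.00 at 6 hpi, 0.09 to 0.32 at 18 hpi and 0.28 to 0.55 at 24 hpi. The 46 members not settled had no call, but an interval that reached beyond 2-fold at some time point, and their summed share was 6.84% at 0 hpi and 8.61% at 24 hpi. For these, neither a change nor its absence was shown. The 81 members of both classes had a median pairwise r of 0.214 over the 12 libraries (3240 pairs), with values down to -0.87, and so did not move as a set.

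The members belonged to 147 Trinity genes and 127 components, and 60 of them lay in 21 components with 2 or more members. In 78 members (47.0%) at least 1 library had an estimate that was not a whole number, against 30.1% of all contigs, and 73 (44.0%) shared their Trinity gene with another contig, against 32.4%. Counts summed per Trinity gene, with 164 such genes at 500 CPM or more, gave 20 genes higher and 7 lower at 6 against 0 hpi, 12 and 62 at 18 hpi and 17 and 18 at 24 hpi. The split of the calls at each time point was close to that of the contigs. Shares over all Trinity genes were not computed, so these counts have no background.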

How the data were processed

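RNA of 12 *Botryllus schlosseri* subclones was measured, 3 libraries per time point. Per the paper's methods and the labels, the authors removed ribosomal reads, trimmed with Trimmomatic 0.30, assembled a transcriptome de novo with Trinity, kept open reading frames, collapsed similar transcripts and assigned reads with kallisto 0.43.1, which divides a read that fits several contigs. The authors deposited these estimated counts for 32561 contigs, not scaled by library size or contig length, so levels of different contigs also reflect their length.

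Estimated counts were rounded. edgeR 4.0.16 in R 4.3.3 was used with TMM factors, filterByExpr and a robust quasi-likelihood fit of all 12 libraries, with 6 contrasts between time points and Benjamini-Hochberg adjustment over 31383 contigs. The limits of a call were 0.05 for the adjusted p and 1 for the absolute log2 fold change. DESeq2 1.42.0 and limma 3.58.1 served as alternatives, with other scalings, no filter, glmTreat, an adjusted p alone, a replicate block, Trinity gene sums, other membership limits and single libraries left out. Shares of counts were tested by exact permutation over libraries. The edgeR fit was also run on simulated data, with an outcome that is not given here. No replicates were alike enough to be 1 library, with a chi-square per contig of at least 3.14.

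The members, the classes and the rule for named contigs were chosen with earlier results of these data known. The rule names the 10 members with the highest mean CPM; the 2 members that rose and the 2 that fell with the most extreme mean log2 fold change and libraries that do not overlap with 0 hpi; the 2 steadiest members; and the contigs next to the limit of 500 CPM, given by value only. No gene names could be tied to contigs, and 1 contig above the limit is not reported here.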

Additional observations from a re-analysis of the deposited data

How the results depend on the processing

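The range of the 4 mean joint shares was 1.66 percentage points. It was 3.99 without the most abundant contig and 0.972 to 2.99 with single libraries left out, the highest without 24 hpi replicate 1. For the other share measures, leaving out single libraries gave ranges between time point means of 3.99 to 4.62 points for the 10 most abundant members, 4.58 to 5.43 for the other members, 1.41 to 3.38 for each library's own most abundant contigs and 303 to 603 contigs for those that hold 50% of the counts. The range was 3.41 points with effective library sizes (exact permutation p = 0.337), 3.30 for members at 500 CPM at every time point (p = 0.0830 by the same exact test), and 1.62 to 2.36 for the other membership rules and for members with whole estimates alone (exact permutation p from 0.110 to 0.556).

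Against a fold change of 2 (glmTreat), members called higher and lower numbered 6 and 11 at 18 against 0 hpi, 7 and 12 at 24 against 0 hpi, 0 and 17 at 18 against 6 hpi, and 0 and 10 at 24 against 6 hpi. With an adjusted p alone they were 15 lower at 6 against 0 hpi, 21 higher at 18 against 0 hpi, 35 higher and 43 lower at 24 against 0 hpi, 5 higher and 70 lower at 18 against 6 hpi, and 17 higher at 24 against 6 hpi. Library size alone gave 6 higher at 18 against 6 hpi, and DESeq2 gave 1 higher at 24 against 18 hpi. The cause of these shifts was not tested beyond the thresholds themselves. Background shares were computed with the main fit only, so the counts of the other fits have none beside them.

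With single libraries left out, the members called higher numbered 23 in each case at 6 against 0 hpi, 11 to 17 at 18 against 0 hpi, 13 to 31 at 24 against 0 hpi, 3 to 4 at 18 against 6 hpi, 1 to 11 at 24 against 6 hpi and 0 to 5 at 24 against 18 hpi. Those called lower numbered 6 to 9, 51 to 61, 17 to 19, 26 to 47, 27 to 31 and 0, respectively. The classes held 23 to 32 members that rose, 47 to 59 that fell, 3 to 6 called both ways (3 without 0 hpi replicate 1), 26 to 39 that stayed and 36 to 58 not settled. Of 855 alternative fold changes of named contigs, 844 kept their direction and their side of the threshold and 1 passed it newly. The other 10 changed sign without a call in either case, with absolute values of at most 0.22. Library size alone gave log2 fold changes of 0.010 for TRINITY_DN17450_c3_g1_i9.p1 and 0.0025 for TRINITY_DN14476_c7_g3_i4.p1 at 24 against 0 hpi (-0.02 and -0.04 with TMM), and of 0.082 in place of -0.084 for TRINITY_DN18662_c2_g2_i3.p1 at 18 against 0 hpi. With single libraries left out, TRINITY_DN17450_c3_g1_i9.p1 ranged from -0.16 to 0.22 and TRINITY_DN14476_c7_g3_i4.p1 from -0.20 to 0.17 at 24 against 0 hpi, and TRINITY_DN18662_c2_g2_i3.p1 from -0.0050 to 0.090 at 6 hpi and from -0.33 to 0.012 at 24 hpi.

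Replicate numbers are shared between time points. Over all tested contigs, same-numbered libraries did not deviate together (18 correlations, -0.14 to 0.09), nor did those with different numbers (36 correlations, -0.09 to 0.12). The labels do not state a pairing, and one that is weak or affects few contigs would not show here. With a replicate block the calls were 23 higher and 6 lower at 6 against 0 hpi, 13 and 58 at 18 against 0 hpi, 15 and 19 at 24 against 0 hpi, 3 and 29 at 18 against 6 hpi, 5 and 31 at 24 against 6 hpi and 0 at 24 against 18 hpi, and the exact permutation p of the joint share was 0.531.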
